A study of Mus musculus with 4 samples.

Results

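Among promoter regions with p53 ChIP signal after DNA damage, 302 had a low signal in untreated cells, below 2 times the array median, and passed the enrichment threshold after adriamycin. They are called gained regions here. The measure was the log2 ratio of immunoprecipitated (IP) DNA over input DNA of each probe, relative to the median of its array, so that a value of 0 is the median probe and each unit is a doubling. Windows were sets of 3 adjacent probes within 1000 bp, and windows with an adriamycin mean of at least 1.8 and at least 2 probes at 1.8 or more were merged within 500 bp into regions. In each region the window with the highest mean of both arrays gave its values. A region was gained when this window had an untreated value below 1 and an adriamycin value higher by at least 1, which is at least 2-fold. The rule selected 302 of 2543 adriamycin regions (11.9%), 148 of 1206 (12.3%) on array design 1 and 154 of 1337 (11.5%) on design 2. Regions were thus chosen by their untreated and adriamycin log2 ratios, which are given below as descriptions, and nothing was tested on them.

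The cells were R1E, an embryonic stem cell line of the mouse. They spent 8 h in growth medium with 1000 units/ml of leukaemia inhibitory factor, which keeps such cells undifferentiated, either untreated or with 0.5 µM adriamycin. Their chromatin was fixed, sonicated and precipitated with 10 µg of an antibody to p53. Both input (Cy3) and IP DNA (Cy5) were amplified by ligation-mediated PCR and hybridised together, with no swap of the dyes. Each condition was measured on 1 array of each of 2 promoter array designs, 4 arrays in all, and each array was a separate slide. Slide, culture and condition therefore cannot be told apart, no comparison has a replicate or a p-value, and precision is limited by the number of arrays. The cells are 1 line, and no array with a control antibody or with cells lacking p53 was analysed here. The error beside a log2 ratio is the standard deviation (SD) among the 3 probes in a window, which are neighbours on the same DNA fragments and not replicates.

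The p53 protein is a transcription factor that is held at a low level in unstressed cells, mainly by the ubiquitin ligase Mdm2, and accumulates when DNA is damaged. It binds DNA as a tetramer at pairs of short palindromic elements, often near the start sites of genes for cell cycle arrest, DNA repair and cell death. Adriamycin (doxorubicin) traps topoisomerase II on DNA and gives double-strand breaks. In ChIP on tiled arrays, a protein bound at a point gives a peak about as wide as the sonicated fragments, whereas signal spread over a promoter gives a broad plateau.

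Positions are those of the probe annotation in the deposited scanner files, and the sources used here do not give their genome build. Of 32813 gene starts of the GRCm38 build, 8.94% lay within 300 bp of a probe. After all starts were shifted by 50000 bp in either direction the share was 8.37% and 8.88%. On arrays that tile promoters the positions of the files are thus not those of GRCm38, and the regions are reported by position with no gene name and no sequence.

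Gained regions covered a narrow range of values. Their untreated values ran from -0.69 to 1.00, with a median of 0.69 and an interquartile range (over regions) of 0.48 to 0.85. Their adriamycin values ran from 1.8 to 3.84, with a median of 2.09 and an interquartile range of 1.94 to 2.30. Most therefore lay close to the adriamycin threshold, with 192 at 2 or more, 34 at 2.5 or more and 5 at 3 or more. The difference, adriamycin minus untreated, had a median of 1.48 (2.79-fold), an interquartile range of 1.27 to 1.76 and a range of 1.01 to 3.31 (2.01-fold to 9.92-fold). It was at least 1.5 in 145 regions, at least 2 in 32 and at least 2.5 in 7. A difference of at least 1 is required by the rule, so its shares over the arrays at large are background only. Of 406114 windows, 4.26% were higher with adriamycin by at least 1 and 5.78% lower by at least 1, and of the 362094 windows with an untreated value below 1, 4.55% were higher by at least 1. Among the 2543 adriamycin regions, 25.0% were higher by at least 1.

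Most members lay above the array median in untreated cells. An untreated value of 0.5 to 1 was found in 220 of them (72.8%), with a median difference of 1.35. In 71 regions (23.5%) the untreated value lay between 0 and 0.5, and their median difference was 1.77. In the remaining 11 (3.64%) it was below the array median, with a median difference of 2.20. The adriamycin medians of these groups were close, at 2.11, 2.04 and 1.93, so that the size of a difference went with the untreated level. The rule sets this in part and it is no separate result. With an adriamycin value of at least 1.8, a lower untreated value requires a larger difference. In 201 members the highest untreated probe of the whole merged region was at 1 or more, and in 14 it was at 2 or more.

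**Figure D1:**
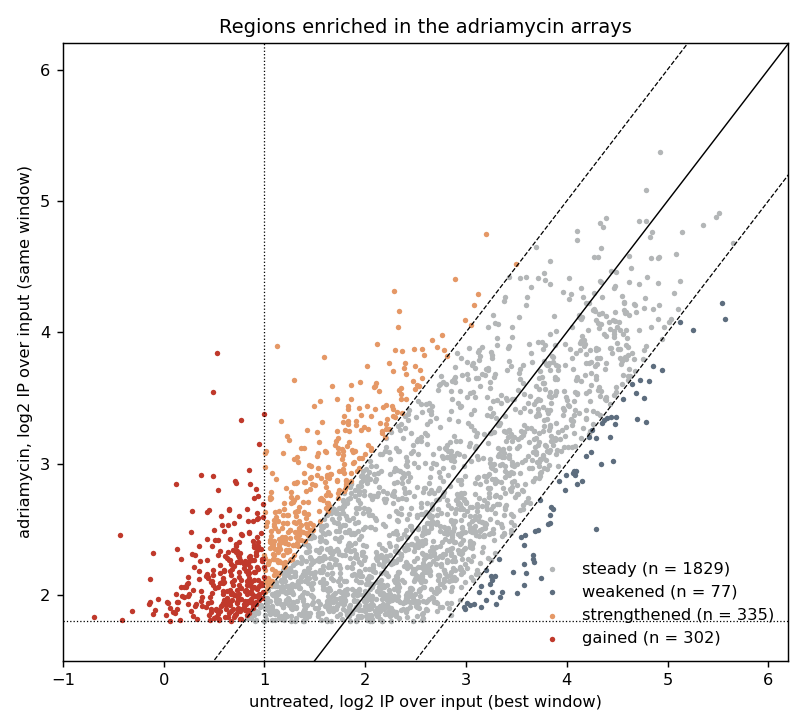
Each point is 1 of the 2543 regions enriched in the adriamycin arrays, with the untreated log2 ratio of IP over input on the x axis and the adriamycin ratio of the same 3-probe window on the y axis. Dotted lines mark the untreated limit of 1 and the adriamycin threshold of 1.8, dashed lines a difference of 1 in either direction and the solid line equality. The 302 gained regions (red) fill the left edge and mostly lie between 1.8 and 2.5 on the y axis, below most of the 335 regions that were already at 1 or more untreated and higher by at least 1 (orange).

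The probes within a member mostly moved together. All 3 probes of the window were higher with adriamycin in 289 of 302 members, a count given without a share over other regions. All 3 were higher by at least 1 in 150, exactly 2 of 3 in 134 and 1 of 3 in 18. All 3 were higher by at least 1 in 119 of 335 regions with an untreated value and a difference of at least 1, and in 269 of all 2543 adriamycin regions. The rule requires a window difference of at least 1, so these counts follow from it in part. The SD of the difference over the 3 probes had a median of 0.52, against a median difference of 1.48. Single probes could be high, with the highest adriamycin probe of the whole merged region at 3 or more in 76 members and at 4 or more in 5. Spots of the same window lay apart on the slide, at least 4 spot positions from each other in every member (median 148).

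The 12 largest differences were described in full, taken from the members with no saturated and no dim spot in the window and with a difference of at least 1 against a common input as well. They lay on 9 chromosomes, 3 of them on chromosome 7 and 2 on chromosome X. In all 12, each of the 3 probes was higher by at least 1. Their untreated values ran from -0.69 to 1.00 and their adriamycin values from 1.83 to 3.84.

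The largest difference was on chromosome 13 from 54533823 to 54534492, a region of 670 bp. Its 3 probes, starting at 54534070, 54534232 and 54534337, had log2 ratios of 0.55, 0.41 and 0.63 in the untreated array and of 3.90, 4.38 and 3.24 with adriamycin. Their processed IP signals were 2114, 4477 and 3704 untreated and 56606, 87097 and 67364 with adriamycin. Their processed input signals were 1588, 3706 and 2638, and 4002, 4426 and 7511. The window went from 0.53 ± 0.11 to 3.84 ± 0.57, a difference of 3.31, and no untreated probe reached any adriamycin probe. Relative to the array medians, the IP signal alone was higher by 4.04 and the input by 0.77. The signal fell away on both sides. At 558 bp before the window centre the adriamycin probe was at 1.06 and at 899 bp after it at -0.08. With adriamycin the region ranked 191st of the 2543 by level, while it ranked 1st by difference.

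The region on chromosome 19 from 6264860 to 6265852 showed a similar peak. Its 3 probes had 0.10, 0.59 and 0.79 untreated and 2.98, 3.61 and 4.03 with adriamycin, so the window went from 0.49 ± 0.36 to 3.54 ± 0.53 (difference 3.05). The IP signals of these probes were 4986, 4355 and 2679 untreated and 85608, 80804 and 60025 with adriamycin. The IP signal alone was higher by 3.90 and the input by 0.90. In this region an untreated signal lay beside the gained window. The probe 582.5 bp after the window centre was at 2.17 untreated and 1.54 with adriamycin, and the next, at 726 bp, was at 1.53 and 1.32. These 2 probes were lower with adriamycin, while the nearest probes on either side of the window were higher, going from -0.59 to 1.01 at 360 bp before the centre and from 0.93 to 2.04 at 407.5 bp after it.

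On chromosome 7, 3 regions were among the 12. The region from 35464190 to 35464651 had probes at 0.06, 0.29 and -1.63 untreated and at 2.07, 2.67 and 2.62 with adriamycin. Its window difference of 2.88 rests in part on the last probe, whose difference was 4.25 against 2.01 and 2.39 for the others. The region from 112160834 to 112161963 had probes at -0.18, 0.11 and 0.44 untreated and at 3.72, 2.62 and 2.19 with adriamycin (difference 2.72). In these 2 regions the differences were 0.90 each when the background was corrected with normexp, below the limit of 1. The third, from 18248626 to 18250111, had the highest untreated value of the 12. Its probes were at 0.69, 1.27 and 1.03 untreated and at 3.47, 3.58 and 3.09 with adriamycin. The window went from 1.00 ± 0.29 to 3.38 ± 0.26, and the probe 254 bp after the centre was still at 3.41 with adriamycin and at 0.31 untreated.

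On chromosome X, the member at 159417952 to 159418404 had probes at 0.09, 0.49 and 1.72 untreated and at 2.34, 3.26 and 4.38 with adriamycin. Its probes spread widely in both arrays but kept their order, and their differences of 2.25, 2.77 and 2.66 were close to each other. The other region on this chromosome, from 38744276 to 38744643, had the lowest untreated value of all members, with probes at -0.39, -1.70 and 0.04 against 1.85, 2.55 and 1.08 with adriamycin. It was also the dimmest of the 12, with untreated IP signals of 313, 111 and 168 and adriamycin IP signals of 2008, 1044 and 399. Its difference of 2.52 was 0.31 with normexp. The member on chromosome 1 from 46795732 to 46796433 lay at the end of its tiled stretch. Its probes went from 0.56, 0.36 and 0.18 to 3.23, 3.21 and 2.30, and its input signal was lower with adriamycin, by 0.53, while the IP signal was higher by 2.02.

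The other 4 of the 12 had adriamycin values of 2.12 to 2.91. On chromosome 2 from 129281015 to 129282139, the probes went from -0.12, 0.57 and 1.02 to 2.45, 2.94 and 3.33, and a region enriched in the untreated array lay 1409 bp away. On chromosome 5 from 33536701 to 33537325, they went from -0.74, 0.34 and 0.10 to 2.71, 2.54 and 1.72. On chromosome 10 from 63413730 to 63414410, they went from 0.83, 0.18 and -0.17 to 2.43, 3.46 and 2.03. In each of these 3 regions the lowest adriamycin probe was above the highest untreated probe. The member on chromosome 14 from 69175730 to 69176433 was among the flattest, with 0.06, -0.22 and -0.25 untreated and 1.74, 2.27 and 2.36 with adriamycin. Its neighbours between 250 and 500 bp from the centre averaged 1.37 with adriamycin and -0.16 without.

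**Figure D2:**
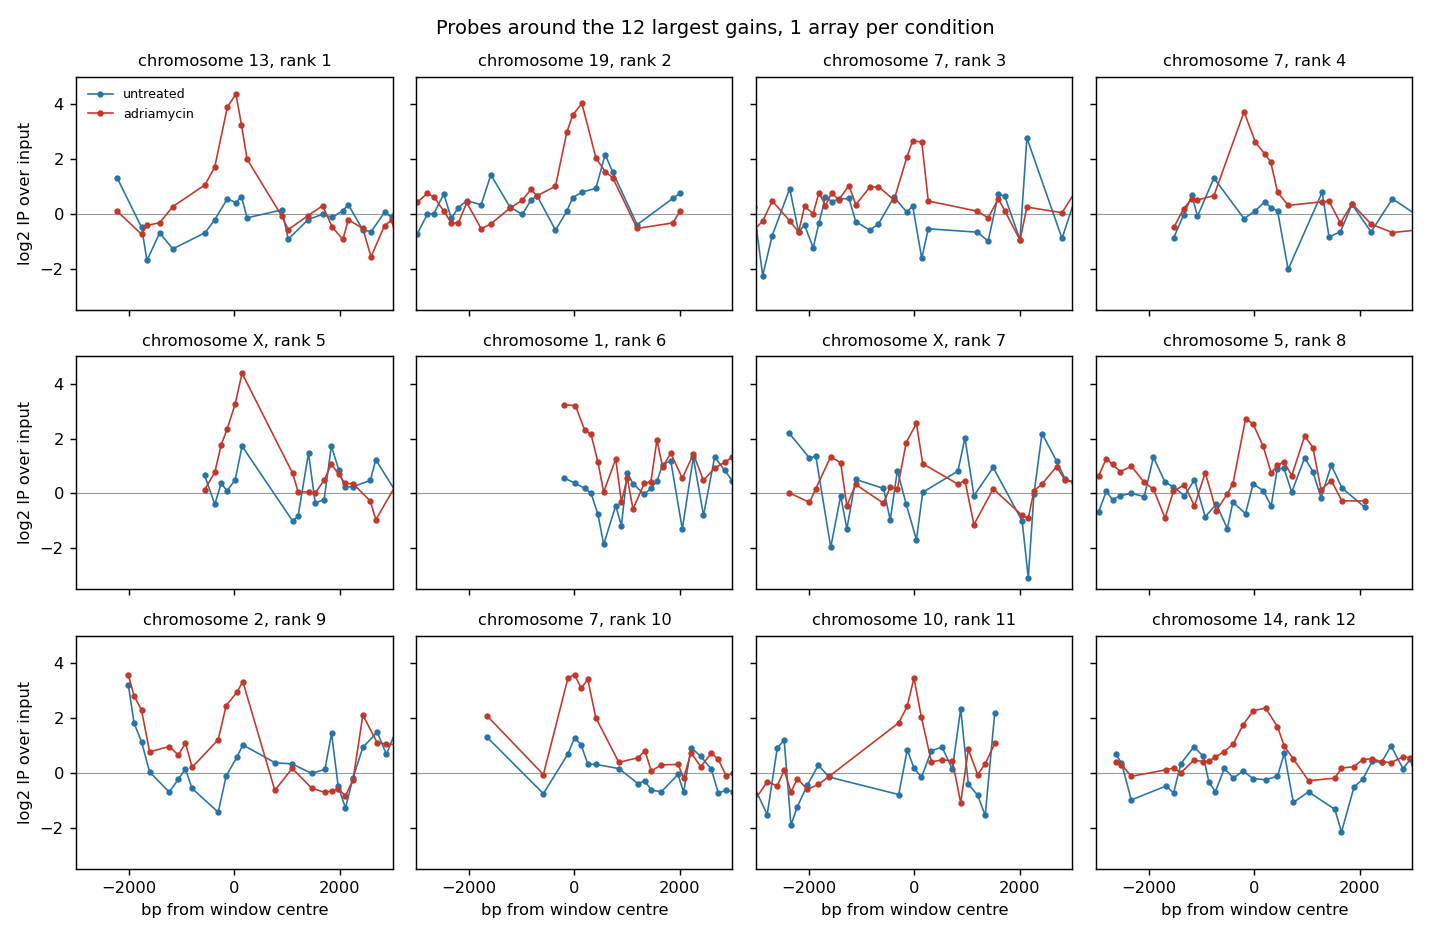
Log2 ratios of IP over input of single probes (points) in the untreated array (blue) and the adriamycin array (red) around the 12 largest gained regions, in order of difference, against the distance from the window centre in bp; lines join neighbouring probes of 1 array. In each panel the red line is high at the centre, up to 4.38 on chromosomes 13 and X. There the blue line stays at 1.72 or below in the window. The red line falls away on both sides except on chromosome 1, where the window lies at the end of its tiled stretch. Farther out, single probes of both arrays scatter and the lines cross in several panels.

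Differences in the IP channel carried most members. Relative to array medians, the median change of the IP signal was 1.5 (interquartile range 1.16 to 2.02) and that of the input signal 0.07 (-0.23 to 0.42). The median processed IP signal of the windows was 2421 untreated and 8350 with adriamycin, while that of the input was 1667 and 2041. IP signal was higher with adriamycin in 301 of 302 members, and by at least 1 in 260 (86.1%). It was higher by at least 1 in 895 of all 2543 adriamycin regions (35.2%). Among the 335 regions with an untreated value and a difference of at least 1, the count was 284 (84.8%), with a median change of 1.47. A large IP change was thus not particular to gained regions. Over all windows, 3.79% had an IP signal higher by at least 1 against a common input, and 3.15% lower by at least 1. The IP signal contributes to the ratio that chose the regions, so the counts of members describe how the difference was made up and support nothing else. Input was lower with adriamycin in 134 members and higher in 168, and within 0.5 of no change in 206. A fall of the input by 1 or more was found in 2 members, and in 7 the input changed by more than the IP signal.

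The members with the least IP change were few. The member on chromosome 2 at 88263756 to 88264290 went from 0.80 ± 1.99 to 1.93 ± 0.64. Its IP signal changed by -0.29 and its input by -1.43, and it held 6 spot readings not well above background. On chromosome X, the member at 57158755 to 57159294 went from 0.67 ± 0.76 to 2.02 ± 0.18, with changes of 0.22 (IP) and -1.08 (input). The member on chromosome 5 at 89839598 to 89840101 had changes of 0.48 and -0.66. In these 3 the lower input made up more of the difference than the IP signal did. The 42 members with an IP change below 1, among them the one with a lower IP signal, had a bright untreated input, at a median percentile of 92.3 among windows against 69.5 for the other 260, and their input fell by 0.44 in the median.

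A background for the rule came from the same arrays with the conditions exchanged. This mirrored rule, untreated at 1.8 or more and adriamycin below 1 and lower by at least 1, selected 496 of 2421 untreated regions (20.5%), more than the rule itself did. Those windows were of another kind. Their input lay at a median percentile of 1.56 in the untreated array and of 16.7 with adriamycin, where gained windows lay at 74.6 and 77.8. Their input signal was higher with adriamycin by a median of 1.84, and their IP signal lower by a median of only 0.43. A spot not well above background was found in 51.4% of mirrored windows and in 0.99% of gained windows (3 regions). With a common input for both arrays of a design, the gained count went from 302 to 583 and the mirrored count from 496 to 29. The sign-turned rule, for windows depleted with adriamycin and near the median untreated, selected 82 of 124 depleted regions (66.1%). Array spreads differed too, with SDs of the log ratios of 1.06 untreated and 0.94 with adriamycin on design 1 and of 1.08 and 0.91 on design 2. When both arrays of a design were scaled to the same spread, the gained count was 593 and the mirrored count 305. Loess within each array went the other way, with 111 gained and 766 mirrored regions.

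**Figure D3:**
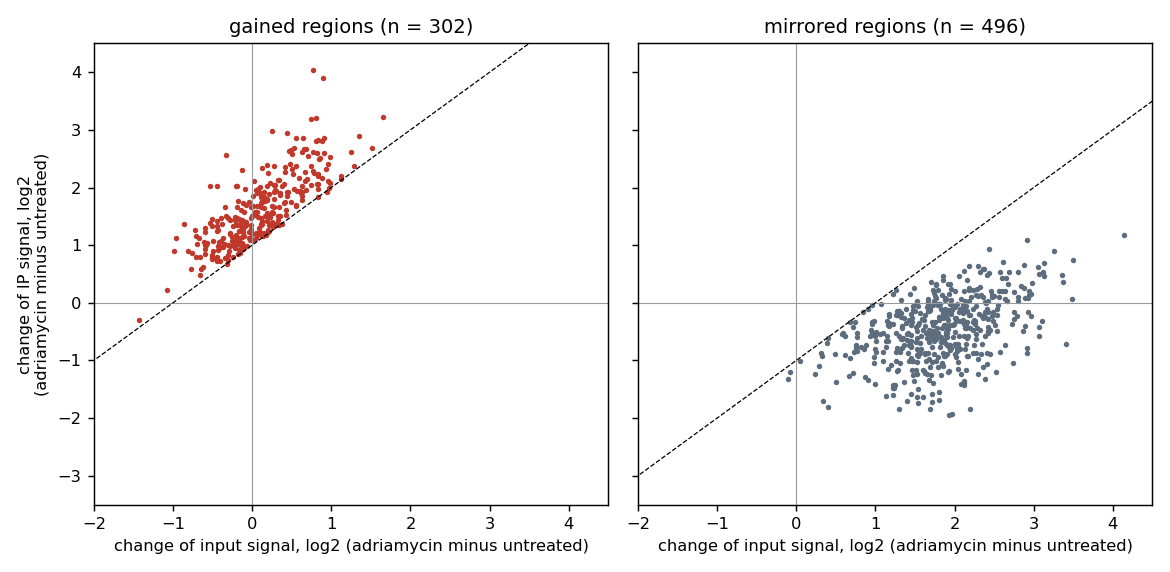
Change of the IP signal (y axis) against change of the input signal (x axis), both log2, adriamycin minus untreated and relative to array medians, for the 302 gained regions and the 496 regions of the mirrored rule; the dashed line is where the ratio differs by 1, the limit of the rule. Gained regions are centred on an input change of 0.07 with an IP change of 1.5, and mirrored regions on an input change of 1.84 with an IP change of -0.43.

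Gained regions were narrower than other adriamycin regions, but not than the regions of the background rules. The width of gained regions had a median of 546.5 bp (interquartile range 425.5 to 711.25 bp, range 274 to 1506 bp). Of the gained regions, 279 were at most 1000 bp wide, and 125 (41.4%) consisted of a single window. The 335 strengthened regions, with an untreated value of at least 1 and a difference of at least 1, had a median width of 804 bp. The 1829 steady regions, with a difference under 1 in size, had a median of 1080 bp. Within each of these classes, regions with an adriamycin value below 2.5 had a smaller median width. Their medians were 528 bp for 268 gained, 637 bp for 91 strengthened and 692 bp for 903 steady regions. Across classes the order differed, since strengthened regions had a higher median adriamycin value than steady ones (2.84 against 2.51) but were narrower. Regions of the mirrored rule had a median width of 501 bp, with 61.5% a single window. For the sign-turned rule these were 467 bp and 81.7%, so a small width was not particular to gained regions.

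The widest members were multi-probe peaks with uneven probes. On chromosome 15 from 77999432 to 78000937 (1506 bp), the window went from 0.64 ± 0.52 to 2.53 ± 0.54, with probes at 1.04, 0.83 and 0.06 untreated and at 2.34, 3.14 and 2.10 with adriamycin. The region on chromosome 7 from 18248626, described above, was next at 1486 bp. On chromosome 2 from 51755236 to 51756707 (1472 bp), the middle probe differed by only 0.55, while the outer probes differed by 1.79 and 1.53. On chromosome 9 from 107938096 to 107939459 (1364 bp), the probes went from 0.81, 1.96 and -0.01 to 2.07, 3.28 and 1.74. Here the highest untreated probe was within the range of the adriamycin probes, although each probe was higher with adriamycin by 1.26 to 1.75. On chromosome 4 from 152817632 to 152818911 (1280 bp), the window went from 0.65 ± 0.65 to 2.65 ± 0.81, and its differences of 2.97, 1.81 and 1.24 were the most uneven of the 5.

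Outside the gained regions the mean signal declined with distance towards the array median. In bins of 250 bp from the window centre, the mean adriamycin signal was 2.19, 0.96, 0.41 and 0.33, and the mean untreated signal was 0.65, 0.13, -0.02 and 0.04. The mean difference was 1.55, 0.83, 0.43 and 0.28 in these bins (standard error over regions 0.02 to 0.04). This error reflects the spread among regions of the same arrays and not the variation between arrays, which could not be measured. The mean difference was 0.24 between 1000 and 1250 bp (0.04), 0.20 and 0.15 in the next bins (0.04 each) and 0.09 between 1750 and 2000 bp (0.05). The bins up to 500 bp hold the probes that gave the regions their values. Probes beyond them can share sonicated fragments with these and come from the same arrays. The outer bins are thus not independent of the rule either. Probes up to 500 bp outside a region were higher with adriamycin on average in 255 of the 300 members that had such probes, and by at least 1 in 38. The median difference of these probes was 0.47 for gained, 0.49 for strengthened and -0.01 for steady regions, so it was not particular to gained regions.

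Their flanks resembled those of strengthened regions and not those of steady regions. Up to 500 bp outside the region, the median untreated signal was 0.06 for gained, 0.04 for strengthened and 0.97 for steady regions, and the median adriamycin signal was 0.52, 0.52 and 0.94. At 500 to 1000 bp the untreated medians were -0.04, -0.03 and 0.56. The contrast with steady regions was as large at a like level: with an adriamycin value below 2.5, the medians up to 500 bp were 0.08 untreated and 0.52 with adriamycin for gained, and 0.97 and 0.96 for steady regions. For the 857 steady regions of at most 1000 bp they were 0.66 and 0.84. A low untreated value in the window is part of the rule, and neighbouring probes share sonicated fragments, so low untreated flanks follow from it in part. The flanks of the mirrored regions were near the median in both arrays, at 0.04 untreated and -0.10 with adriamycin.

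**Figure D4:**
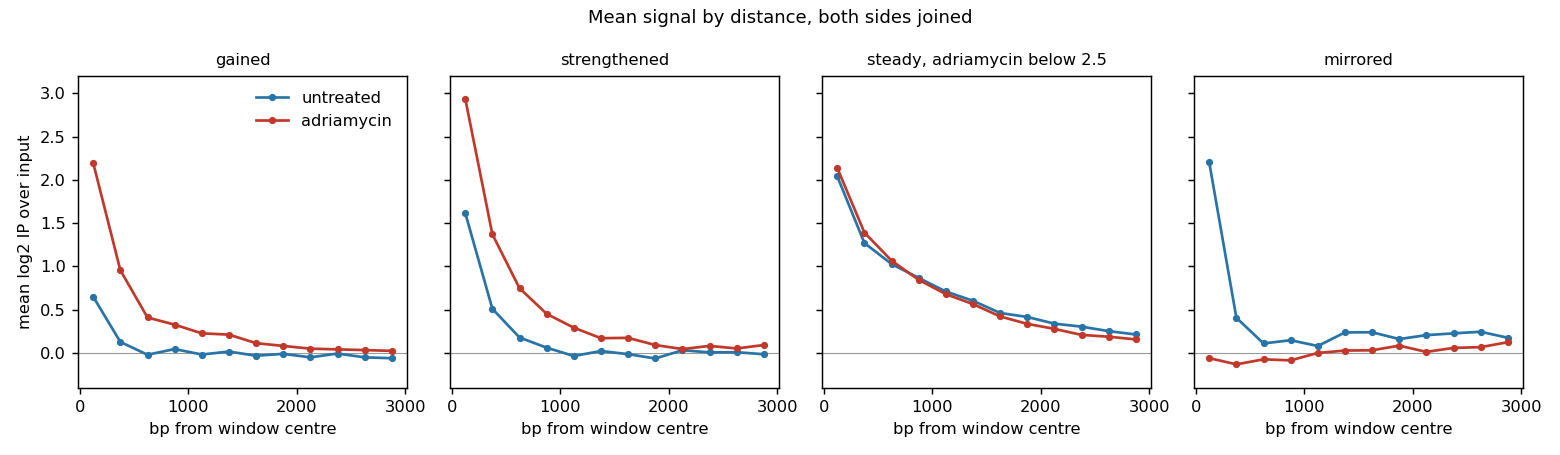
Mean log2 ratio of IP over input against distance from the window centre (bins of 250 bp, both sides joined), untreated in blue and adriamycin in red, for gained, strengthened, steady (adriamycin value below 2.5) and mirrored regions. In gained regions the red line falls from 2.19 to 0.41 within 3 bins while the blue line starts at 0.65, whereas in steady regions both lines overlap and are still at 0.71 (untreated) and 0.68 (adriamycin) between 1000 and 1250 bp.

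Most members, like most steady regions, were the only adriamycin region of their tile. Probes formed 16400 tiles, stretches of probes with no gap above 2000 bp. The 302 regions lay in 296 tiles, of which 6 held more than 1 member. In 256 members the tile held no other adriamycin region. Of the other 46 (15.2%, against 20.3% of steady regions), 34 shared the tile with a region that was not gained and 12 with another gained region. A region enriched at 1.8 in the untreated array was in the tile of 35 members and within 500 bp of 2. Neither kind of neighbour was present for 247. An untreated window at 1 or more was found in the tiles of 138 members, those 35 included, and inside the merged region of 9. These counts of untreated neighbours have no share over all tiles beside them and describe the members only.

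Members lay along tiles much as other windows did. The median distance to the nearer end of the tile was 1894 bp for gained and 2005.5 bp for steady regions, and 2020.5 bp for all windows. Within 500 bp of an end lay 42 members (13.9%), against 7.87% of steady regions and 11.1% of all windows. Between 1000 and 3000 bp from an end the shares of members were 29.8% and 26.8% in the 2 successive steps of 1000 bp, against 33.9% and 31.6% of steady regions.

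By chromosome, counts ran from 6 on chromosomes 8 and 16 to 34 on chromosome 7. Chromosome 7 had 10.3 members per 10000 windows, and 20.2% of its 168 adriamycin regions were gained, the highest share of any chromosome and above the 11.9% of all. Chromosome 18 had the most per 10000 windows, 12.9 (13 members), and chromosome 8 the fewest of those with any, 3.16. On chromosome X there were 11 members, 3.64% of the total, where 3.71% of all windows lay. Mirrored regions differed in this respect, with 76 (15.3%) on chromosome X. Neither chromosome Y (170 windows) nor mitochondrial DNA (45 windows) held a member. All 11 members on chromosome X were on design 2, while the named members on chromosomes 1, 2, 4, 5 and 7 were on design 1. Chromosomes were thus spread unevenly over the designs. A comparison of chromosomes is therefore in part one of slides, and a comparison of designs in part one of chromosomes.

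Probe length, which the array design shortens where a sequence is rich in G and C, was intermediate in gained windows. Its median over windows was 51.0 bases for gained, 50.7 for strengthened and 49.0 for steady regions, 55 for all windows and 58.3 for mirrored regions. Windows with a mean length of 56 bases or more made up 19.9% of gained, 12% of steady and 72.4% of mirrored regions and 43.4% of all windows. At the other end, under 47 bases, the shares were 17.2%, 31.9%, 0.40% and 9.84%. The level of the arrays depended on this length. Under 47 bases the median of all windows was 0.42 untreated and 0.72 with adriamycin, and from 56 bases up -0.19 and -0.27. The median difference of all windows was 0.23 and -0.06 in these classes. For members the median difference ran from 1.39 to 1.62 over the 5 length classes. The rule requires at least 1, so this range cannot show whether the difference depends on length. Their median IP change was 1.23 in the class with the shortest and 1.8 in the class with the longest probes. The part of base composition in the choice of the regions was not tested.

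**Figure D5:**
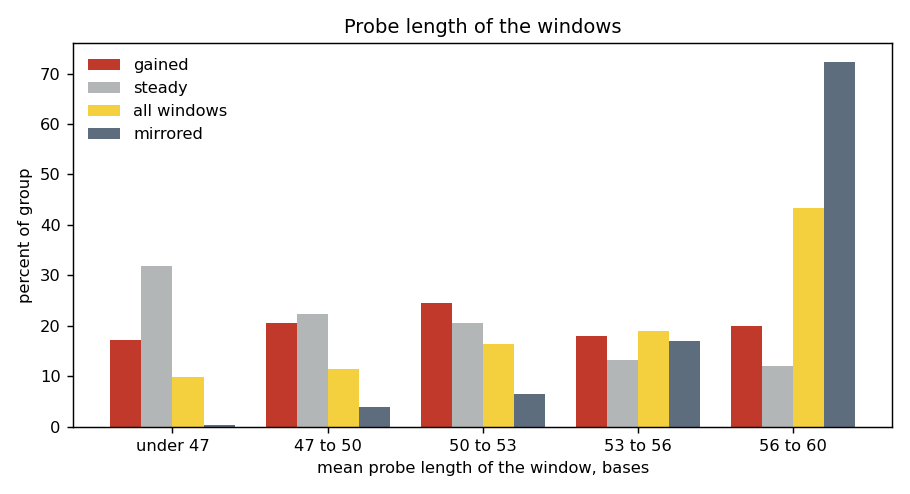
Percent of the regions or windows of each group (bars from 0) by the mean probe length of the window, in bases, for gained, steady and mirrored regions and for all windows. Gained regions are spread evenly over the classes, with 17.2% to 24.5% in each, while 72.4% of mirrored regions have the longest probes and 31.9% of steady regions the shortest.

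How many members kept a difference of at least 1 depended on how the signals were corrected. It was 284 of 302 with the authors' deposited log2 ratios, 260 with a common input, 297 with centring on the mode, 301 of the 301 with a value when dim spots were left out, and 302 with equal spread. With loess within each array it was 189 (median 1.09), with normexp 162 (1.15), and with normexp without extreme local backgrounds 213 (1.21). Among all 2543 adriamycin regions the shares at 1 or more under these settings were 26.0%, 35.2%, 24.2%, 25.0%, 44.1%, 11.1%, 28.4% and 23.6%. A negative difference was found for 1 member under 1 setting, the common input. The normexp result split by design, with 11 of 148 members kept on design 1 and 151 of 154 on design 2, and without extreme local backgrounds 65 and 148. Of all members, 88 kept a difference of at least 1 under all 8 settings, 11 on design 1 and 77 on design 2. This count and the normexp counts by design have no share over all adriamycin regions beside them. They describe the members only, which the rule chose by a difference of at least 1. These 88 had medians of 0.49 untreated and 2.28 with adriamycin, a median difference of 1.82 and a median IP change of 1.85, and in 68 of them all 3 probes were higher by at least 1. Of the 12 largest, 9 were among them, and the exceptions were both regions on chromosome 7 named for normexp and the region on chromosome X from 38744276.

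At the limits of the rule, members and other regions had close values of the quantity limited. Just inside the untreated limit, beside the region on chromosome 7 from 18248626, were a region on chromosome 5 from 78340766 (1.00 ± 0.19 untreated, difference 1.21) and one on chromosome 19 from 11331617 (1.00 ± 1.16, difference 1.14). In the latter, the probes were at 1.49, 1.82 and -0.33 untreated and at 1.58, 2.82 and 2.01 with adriamycin, with differences of 0.09, 1.00 and 2.34. Just outside were regions on chromosome 11 from 78202885 and on chromosome 2 from 164548486 and from 32355562, with untreated values of 1.00 and differences of 1.30, 2.08 and 1.63. Just inside the difference limit were regions on chromosome 7 from 127917633, chromosome 9 from 98295096 and chromosome 2 from 24997364, each with a difference of 1.01 and an IP signal higher by 2.14, 1.91 and 1.99. Just outside were regions on chromosome 4 from 126860196, chromosome 8 from 18740669 and chromosome 11 from 76387446, with differences of 1.00, 0.98 and 0.98, untreated values of 0.83, 0.89 and 0.85, and an IP signal higher by 0.66, 1.40 and 0.86. In all, 20 adriamycin regions with an untreated value below 1 missed the rule, with differences of 0.81 to 1.00.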

How the data were processed

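The deposited scanner files come from Agilent Feature Extraction 10.1.1.1, per the file headers, and give for each spot background-subtracted, dye-scaled processed intensities of Cy3 (input) and Cy5 (IP). The log10 ratio deposited beside them equalled that of the processed signals within 0.0001 for 97.7% to 99.0% of spots per array. The value table deposited by the authors has log2 ratios, equal within 0.0001 to those of background-subtracted spot medians on all 4 arrays, and not centred. Here, log2 of processed IP over processed input was centred on each array's median, without loess. Control spots, probes with no position and outlier marks in either array were left out, which kept 236817 and 236686 probes (202535 and 203579 windows). Designs were processed separately and counts added. Input was well above background for 98.8% to 99.6% of probes and IP for 94.3% to 98.2%; median background-subtracted IP signals were 24.5 to 65.

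Scripts used Python 3.11.15, numpy 2.4.6, pandas 2.3.3 and limma 3.58.1 (normexp with an offset of 50 on spot medians and local backgrounds, in place of the planned spot means; loess). The region rule was tested on simulated data. A common input is the mean log2 input of both arrays of a design. Named regions were the 12 largest differences with no dim or saturated spot, the 5 widest, and 3 on each side of each limit; 3 members of interest for a low IP change were chosen after their values were seen. Members, rules and named lists were chosen with earlier results of these data known. Gene lists of p53 targets, the Wnt pathway, pluripotency and olfactory receptors were not used, for want of gene names in the files' build. Alternatives were other measures, centring, spread, filters, thresholds, window sizes, untreated limits, minimum differences and merging distances.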

Additional observations from a re-analysis of the deposited data

How the results depend on the processing

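The gained count of 302 was 307 with the deposited table, 267 with normexp, 305 with centring on the mode, 299 without dim spots and 296 with merging within 1000 bp. It was 167 with normexp without extreme local backgrounds (chosen after seeing the data), 111 with loess, 583 with a common input, 593 with equal spread, 522 and 177 at thresholds of 1.5 and 2, 82 with an untreated limit of 0.5, 115 with windows of 5 probes within 1500 bp and 145 with a minimum difference of 1.5. A like count did not mean the same regions: normexp's overlapped 33 of the 302, loess's 59 and the deposited table's 223.

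The mirrored count of 496 was 28 with the deposited table, 29 with normexp, 4 without extreme local backgrounds, 766 with loess, 29 with a common input, 305 with equal spread, 285 without dim spots, 1027 and 303 at thresholds of 1.5 and 2, and 71 with 5 probes. The sign-turned count of 82 was 495, 0, 0, 2, 179, 213, 26, 298, 20 and 4 in that order, 46 with an untreated limit of 0.5 and 40 with a minimum difference of 1.5. More gained than mirrored regions were thus counted with the deposited table, both normexp settings, the common input, equal spread, the filter on dim spots and windows of 5 probes, and fewer in the other settings. With normexp the designs went opposite ways, with 9 gained and 29 mirrored regions on design 1 and 258 and 0 on design 2.

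The median difference of 1.48 was 1.09 with loess and 1.15 to 1.78 in the other settings of the measure. No difference of the 12 largest members, the 5 widest or those just inside the limits changed sign. Regions just outside were not run, and the member on chromosome 2 at 88263756 went from 1.13 to -0.29 with a common input. The cause of these shifts was not tested, beyond what a setting does by construction: fewer spots, a stricter limit or longer windows. No paired analysis was possible because a design held a single array of either condition. Precision is limited by 1 array per condition and by dim IP signals.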
